A study of Equus caballus with 19 samples.

Results

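FOS, SOCS3 and DDIT4 were followed on the arrays through 7 probes, 1 each for FOS and SOCS3 and 5 for DDIT4. They were found by the RefSeq transcript accession that the array design gives each probe, XM_001491972 for FOS, NM_001123379 for SOCS3 and XM_001502859 for DDIT4. The array holds 43384 different horse probes, of which 1781, for 799 genes, could be named in this way. The 3 genes were picked on their known role as fast stress-response genes, with the levels, the differences between groups and the correlations on these arrays already known, so the group values below describe them, and their p-values, read from one fit over all probes, lend the choice no support.

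The arrays measured total RNA from whole venous blood of 19 prepubertal Welsh foals, about 10 months old at the start, after 12 weeks of treatment. The 9 control horses (6 males, 3 females), labelled impoverished, stayed in individual stalls with short outings alone to a paddock. The 10 EE-treated horses (4 males, 6 females; EE, enriched environment) spent part of each day in a larger stall with varied feed, objects, odors and music, and the rest at pasture in a group. Human contact time was kept equal between the groups. Each horse gave 1 blood sample and 1 array, so each group value rests on separate animals. Pasture, company, feed and objects came together in the EE treatment and cannot be told apart. In whole blood, fewer cells of a type and less RNA per cell cannot be told apart either.

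FOS encodes a subunit of the AP-1 transcription factor and is an immediate early gene, switched on within minutes of many stimuli and switched off again soon after. SOCS3 encodes a suppressor of cytokine signaling that is induced by STAT3 downstream of interleukin 6 and related cytokines, and that then blocks the receptor and its JAK kinases, a feedback loop well known in neutrophils and monocytes. DDIT4, also called REDD1, encodes an inhibitor of the mTORC1 growth kinase and is induced by glucocorticoids, low oxygen, DNA damage and energy shortage. All 3 messages are short-lived, so a single blood sample catches them at 1 moment.

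Signals were log2 values of the background-corrected spot intensity, scaled on each array so that the 75th percentile was 500. Before scaling, this percentile lay between 448 and 741 on the control arrays and between 346 and 814 on the EE arrays. Signal well above background was found for 61.2% to 69.6% of the spots, depending on the array, and 0 spots were saturated. The 19 arrays lay on 5 slides, and each slide held both groups. All 9 control arrays were at the second or the fourth position of a slide, and 9 of the 10 EE arrays at the first or the third, so position and treatment can hardly be told apart.

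Each of the 7 probes was well above background on 19 of the 19 arrays, with 0 spots marked as outliers, so all 7 entered every comparison. FOS and DDIT4 stood far above their surroundings. The FOS spot had a median intensity of 585 to 2306, which was 31.4 to 128 times the background measured around it. The 5 DDIT4 spots reached 2355, and the lowest ratio of any of them to its local background was 26.9.

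SOCS3 was a dim spot. Its median intensity was 39 to 56 on the control arrays and 39 to 74.5 on the EE arrays, over a local background of 16 to 28. The ratio of spot to local background was 1.46 to 2.73 (median 2.27) in control horses and 1.77 to 3.24 (median 2.45) in EE-treated horses. The scanner software gave the SOCS3 signal an error of 11.1% to 16.3% per array, against about 10.0% for FOS and DDIT4. The SOCS3 values thus carry the most measurement error of the 3 genes, and for all of them the precision is set by how many arrays there are.

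**Figure D1:**
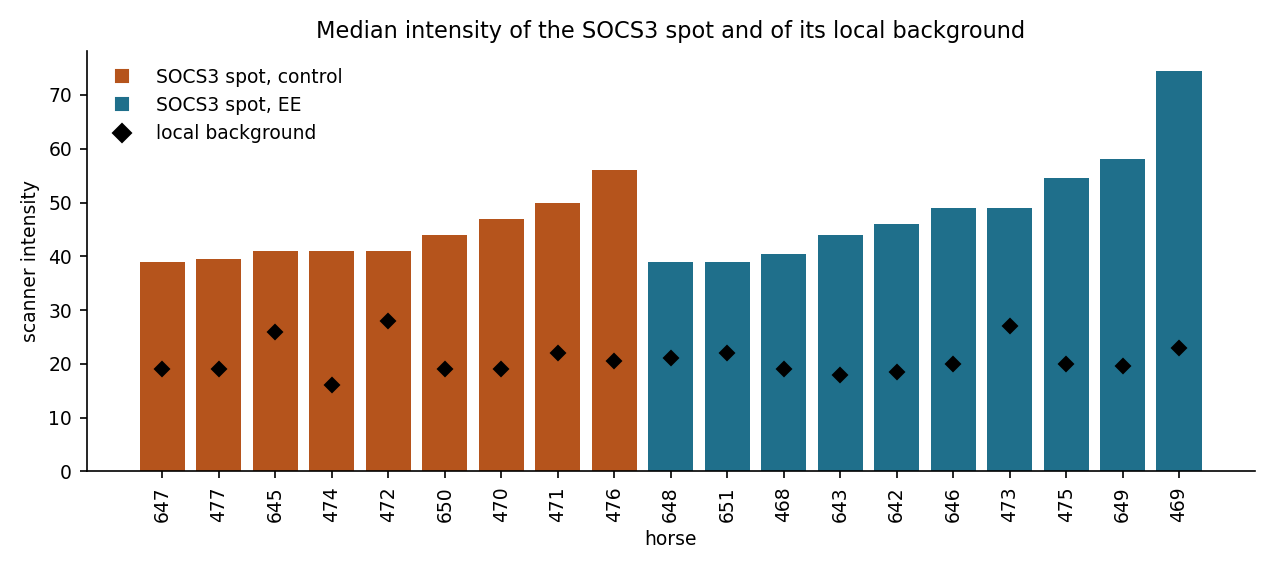
Median scanner intensity of the SOCS3 spot (bars, control in brown, EE in blue, ordered by height within each group) and of the background around it (diamonds), 1 array per horse. Every bar stands above its diamond, the spots lie between 39 and 74.5 and the background between 16 and 28, and EE-treated horse469 has the tallest bar.

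The mean signal of SOCS3 was higher under EE than under control housing. The direction of this and of all signed values here is EE minus control as computed from each horse's label, and it is opposite to the heading of the fold column in the study's own list of probes. In the control horses its log2 signal ran from 3.54 (horse477) through a median of 4.16 to 4.75 (horse650), and in the EE-treated horses from 4.27 (horse468) through a median of 4.64 to 5.58 (horse469). The groups overlapped, but the control mean was exceeded by 10 of the 10 EE-treated horses. Of the 9 control horses, 7 lay below every EE-treated horse, and 2 EE-treated horses lay above every control horse. Some of these margins were narrow beside the scanner error given above. Control horse474 lay at 4.268 against 4.271 for EE-treated horse468, and EE-treated horse646 at 4.779 against 4.747 for control horse650. The means were 4.65 ± 0.37 (SD, n = 10) in EE-treated and 4.19 ± 0.38 (SD, n = 9) in control horses. They differed by 0.46 on the log2 scale (standard error 0.17, 95% confidence interval 0.11 to 0.82), or 1.38-fold. In limma the unadjusted p was 0.013 and the p adjusted over all probes 0.319, so that the difference did not pass an adjusted threshold. The size for this dim spot depended on the background correction, at 0.30 with normexp on the median signal (unadjusted p = 0.0126, limma). Without scaling it was 0.27 (unadjusted p = 0.179, limma). Leaving out the scaling shifts all probes of an array alike, and DDIT4 probe A_69_P107076 was then at -0.54 and FOS at -0.22.

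DDIT4 had a lower mean signal in EE-treated horses. Averaged over its 5 probes, the log2 signal of DDIT4 ran from 10.29 (horse470) through a median of 10.50 to 10.75 (horse472) in control horses, and from 9.77 (horse646) through 10.16 to 10.75 (horse643) in EE-treated horses. The control horses lay close together, whereas the EE-treated horses spread over 0.99 log2 units. Of the 10 EE-treated horses, 6 lay below every control horse, 9 lay below the control mean, and horse643 lay above every control horse by less than 0.01. The means were 10.19 ± 0.30 (SD, n = 10) and 10.50 ± 0.14 (SD, n = 9), a log2 difference of -0.31, or 1.24-fold higher in control horses.

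**Figure D2:**
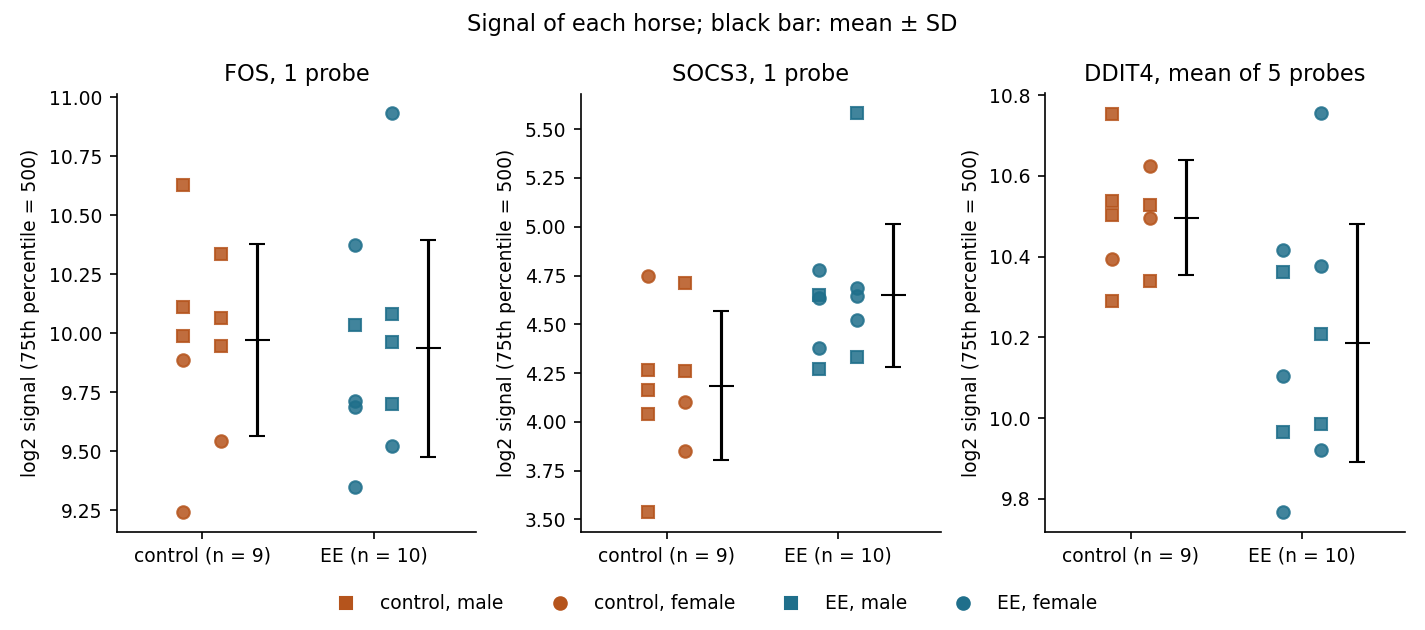
Log2 signal of FOS, SOCS3 and DDIT4 in each horse (1 point per horse, squares males, circles females; vertical axis log2 signal with the 75th percentile at 500; black bars mean ± SD). FOS means are 9.97 in control and 9.94 in EE-treated horses, SOCS3 lies higher in EE-treated horses (4.65 against 4.19), and DDIT4 lies lower (10.19 against 10.50) with EE-treated horse643 at 10.75.

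Probe by probe, the difference for DDIT4 had the same direction. A_69_P107076 ran from 10.29 to 10.67 (median 10.49) in control horses and from 9.76 to 10.75 (median 10.10) in EE-treated horses. Its log2 difference was -0.35 (standard error 0.11, 95% confidence interval -0.58 to -0.11), with an unadjusted p of 0.00614 and an adjusted p of 0.278 in limma. The other 4 probes had log2 differences of -0.33 (A_69_P107077), -0.29 (A_69_P107078), -0.32 (A_69_P107079) and -0.27 (A_69_P107080). Among these 4 the smallest unadjusted p in limma was 0.0118 and the largest 0.0421. The 5 probes share a transcript and are not separate evidence, since over the 19 horses any 2 of them correlated at r of 0.937 to 0.986.

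EE-treated horse643 weighed on DDIT4 more than any other horse. On every DDIT4 probe this EE-treated horse was the highest of its group, at 10.65 to 10.86, and horse646 was the lowest, at 9.66 to 9.83. Without horse643 the log2 difference of A_69_P107076 was -0.41 (unadjusted p = 0.000446, adjusted p = 0.223 in limma). That p-value lies under 0.005, the threshold of the study's methods, which also ask for a difference of at least 20% (a ratio of 1.2 and over, or of 0.8 and under). With it left out 4 of the 5 DDIT4 probes met this rule, where 0.811% of all probes met it downward in the same fit, and with all 19 horses 0 of the 5 did.

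FOS did not separate the groups. Its log2 signal ran from 9.24 (horse650) through a median of 9.99 to 10.63 (horse470) in control horses and from 9.35 (horse646) through 9.84 to 10.93 (horse643) in EE-treated horses. The 2 ranges lay almost on top of each other. The means were 9.97 ± 0.41 (SD, n = 9) in control and 9.94 ± 0.46 (SD, n = 10) in EE-treated horses, which left a log2 difference of -0.04 (standard error 0.19, unadjusted p = 0.853, adjusted p = 0.947 in limma). The 95% confidence interval of the difference reached from -0.44 to 0.37 and so still holds differences as large as that of DDIT4. With sex in the fit the difference was 0.04, on the other side of 0.

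**Figure D3:**
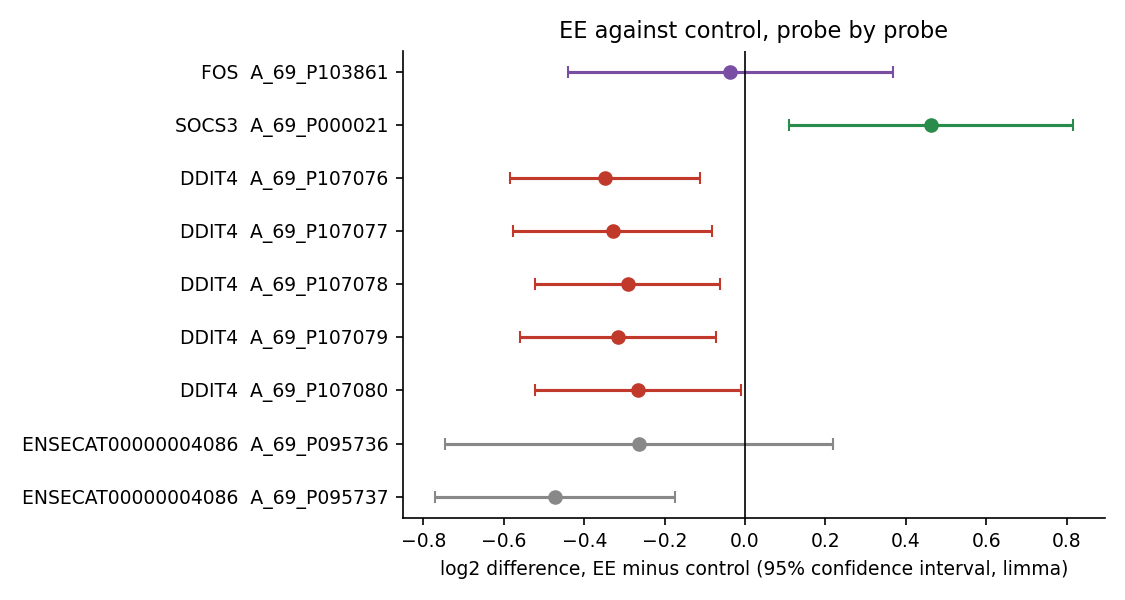
Log2 difference, EE minus control, of the 7 probes and of 2 further probes of transcript ENSECAT00000004086 (points, with 95% confidence intervals from limma on 19 horses). The interval of FOS spans 0 (-0.44 to 0.37), that of SOCS3 lies above 0 (0.11 to 0.82), and those of the 5 DDIT4 probes lie below 0.

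Taken by the rule of the study's methods, 0 of the 7 probes were called, where 1.82% of all probes were (0.643% lower and 1.18% higher in EE-treated horses). At an unadjusted p under 0.05, 6 of the 7 probes passed, SOCS3 upward and the 5 DDIT4 probes downward, where 11.7% of all probes passed (7.44% higher and 4.24% lower in EE-treated horses). The count was 5 with scan as a block (10.9% of all probes) and on the arrays of the first scan alone (11.2%), without A_69_P107080 (unadjusted p = 0.0558 and 0.0628, limma). It was 5 without scaling, where SOCS3 did not pass (8.15% of all probes), 4 in males alone (6.36%) and 0 in females alone (6.33%). With 1 horse left out at a time it was 5 or 6. Of all 43384 probes, 0 had an adjusted p under 0.05 by limma (smallest 0.0922, with 5068 probes at an unadjusted p under 0.05).

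A further pair of probes, A_69_P095736 and A_69_P095737, belongs to transcript ENSECAT00000004086, and the second is named DDIT4 in the study's own list. They carry no RefSeq accession and stood outside the rule that chose the probes. Both were dim, at 1.68 to 5.90 times their local background. The log2 signal of A_69_P095737 averaged 5.38 ± 0.18 (SD, n = 9) in control horses. In EE-treated horses it averaged 4.90 ± 0.39 (SD, n = 10), which is a difference of -0.47 (unadjusted p = 0.00355, adjusted p = 0.244 in limma), and 8 of the 10 EE-treated horses lay below every control horse. With a background correction by normexp on the median signal this difference was -0.08 (unadjusted p = 0.414, limma).

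The other probe of that transcript, A_69_P095736, had a difference of -0.26 (unadjusted p = 0.269 in limma), with EE-treated horse648 at 6.40 against a highest control horse of 5.80. Across the 19 horses the pair correlated at r of 0.668 with each other and at 0.355 to 0.798 with the 5 RefSeq probes of DDIT4, below the correlations among those 5. Whether they measure the same message as the 5 was not tested, because the probe letters are not in the files used here.

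Within slides, SOCS3 kept its direction on every slide and DDIT4 on all but 1. The SOCS3 difference between the group means of a slide was 0.18 to 0.79 on the 5 slides. For DDIT4 it was -0.62 to -0.19 on 4 slides and 0.17 on slide 3, the slide that held horse643. FOS went both ways, from -0.51 to 0.34. With slide as a block the log2 differences were 0.44 for SOCS3 (unadjusted p = 0.03) and -0.34 for DDIT4 probe A_69_P107076 (unadjusted p = 0.00946), both in limma. On the 16 arrays of the first scan alone the SOCS3 difference was 0.38 (unadjusted p = 0.026, limma).

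**Figure D4:**
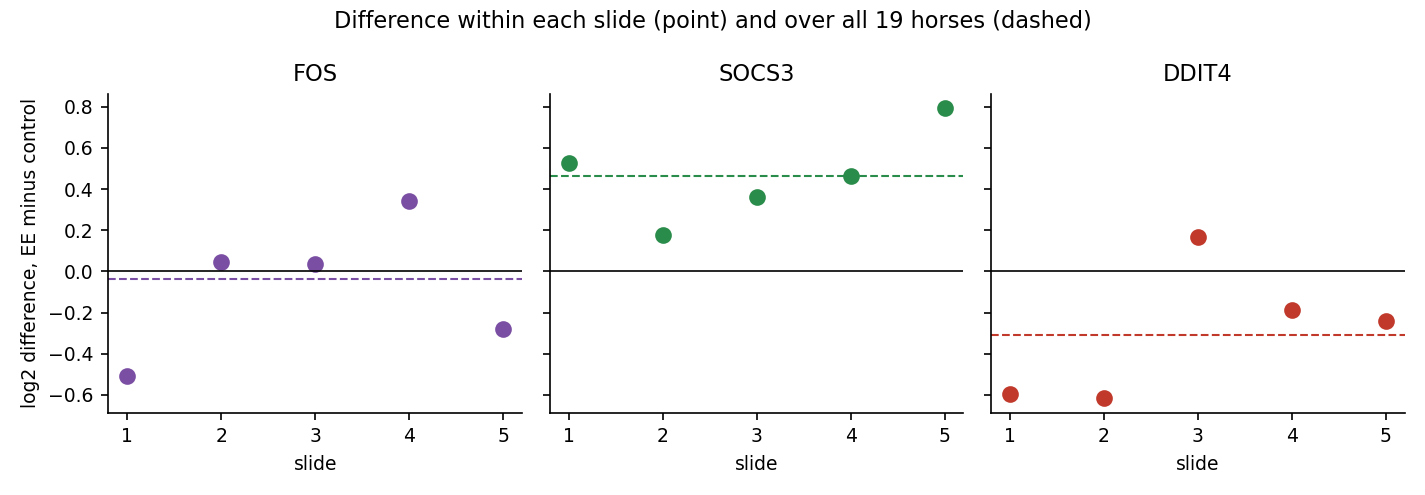
Log2 difference, EE minus control, between the group means of each of the 5 slides (points; 3 or 4 arrays a slide) and over all 19 horses (dashed lines) for FOS, SOCS3 and the mean of the 5 DDIT4 probes. SOCS3 lies above 0 on 5 of 5 slides (0.18 to 0.79), DDIT4 below 0 on 4 of 5, and FOS on either side.

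Sex was unevenly spread over the groups and was looked at for the same probes. FOS ran from 9.70 to 10.63 (median 10.05) in the 10 males and from 9.24 to 10.93 (median 9.69) in the 9 females, and both the highest and the lowest horse were females. With treatment in the fit, FOS was 0.29 higher in males on the log2 scale (standard error 0.19, 95% confidence interval -0.12 to 0.70, unadjusted p = 0.152, limma). Of the 7 probes, 0 had an unadjusted p under 0.05 between the sexes, where 5.97% of all probes did, and 0 had an adjusted p under 0.05, where 0.053% did.

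The treatment difference was also taken in each sex. For SOCS3 it was 0.55 in males and 0.38 in females, and for DDIT4 -0.36 and -0.28. For FOS it was -0.23 in males and 0.37 in females, where control females were lowest (mean 9.56 ± 0.32, SD, n = 3). The interaction of treatment and sex for FOS was -0.61 (standard error 0.38, 95% confidence interval -1.40 to 0.18, unadjusted p = 0.125, adjusted p = 0.983 in limma), so the opposite signs were not shown to differ. At an unadjusted p under 0.05 for the interaction, 3.05% of all probes passed and 0 of the 7.

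Among horses of one group, FOS varied more than most probes, and DDIT4 varied little in control horses. The SD of FOS within groups was 0.43, the 82.3rd percentile of the 24524 probes that were well above background on all arrays, whose median SD was 0.29. That of SOCS3 was 0.37 (the 72.7th percentile), with the larger scanner error given above. The DDIT4 probes had SDs of 0.22 to 0.25 over both groups (the 27.9th to 39.1st percentiles), with 0.12 to 0.17 in control horses and 0.27 to 0.31 in EE-treated horses. From the lowest to the highest of the 19 horses, FOS spanned 3.22-fold, SOCS3 4.12-fold and the DDIT4 probes 1.94-fold to 2.06-fold.

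Taken over the 19 horses, none of the 3 pairs of genes was correlated past the threshold. FOS and DDIT4 had a Pearson r of 0.42 (permutation p = 0.0728, adjusted over the 3 pairs 0.218) and a Spearman rho of 0.344 (permutation p = 0.15, adjusted 0.324). FOS and SOCS3 had an r of -0.19 (permutation p = 0.434, adjusted 0.434) and a rho of -0.28 (permutation p = 0.237, adjusted 0.324). SOCS3 and DDIT4 had an r of -0.27 (permutation p = 0.27, adjusted 0.405) and a rho of -0.24 (permutation p = 0.324, adjusted 0.324).

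Leaving out the 2 horses farthest from the median of the first gene gave r of 0.483 for FOS and DDIT4 (permutation p = 0.05, adjusted 0.15), -0.15 for FOS and SOCS3 (permutation p = 0.576) and -0.21 for SOCS3 and DDIT4 (permutation p = 0.429). With the group means subtracted, r was 0.481 for FOS and DDIT4 (permutation p = 0.0497, adjusted 0.149). It was -0.20 for FOS and SOCS3 (permutation p = 0.428) and 0.063 for SOCS3 and DDIT4 (permutation p = 0.808).

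FOS and DDIT4 went together among the EE-treated horses. Among them horse643 was the highest of the 10 for both genes and horse646 the lowest for both. Within the EE-treated horses the Pearson r was 0.851 (n = 10, permutation p = 0.00223, adjusted over the 3 pairs 0.00669), and rho was 0.83 (permutation p = 0.00523, adjusted 0.0157). It rests in part on 2 horses, since without horse643 and horse651, the farthest in FOS, r was 0.591 (n = 8, exact permutation p = 0.124). In the 9 control horses r was -0.43 (exact permutation p = 0.242) and rho -0.32 (exact permutation p = 0.41), and without horse650 and horse470 r was 0.136 (exact permutation p = 0.763). The difference between the correlations of the 2 groups was not tested.

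**Figure D5:**
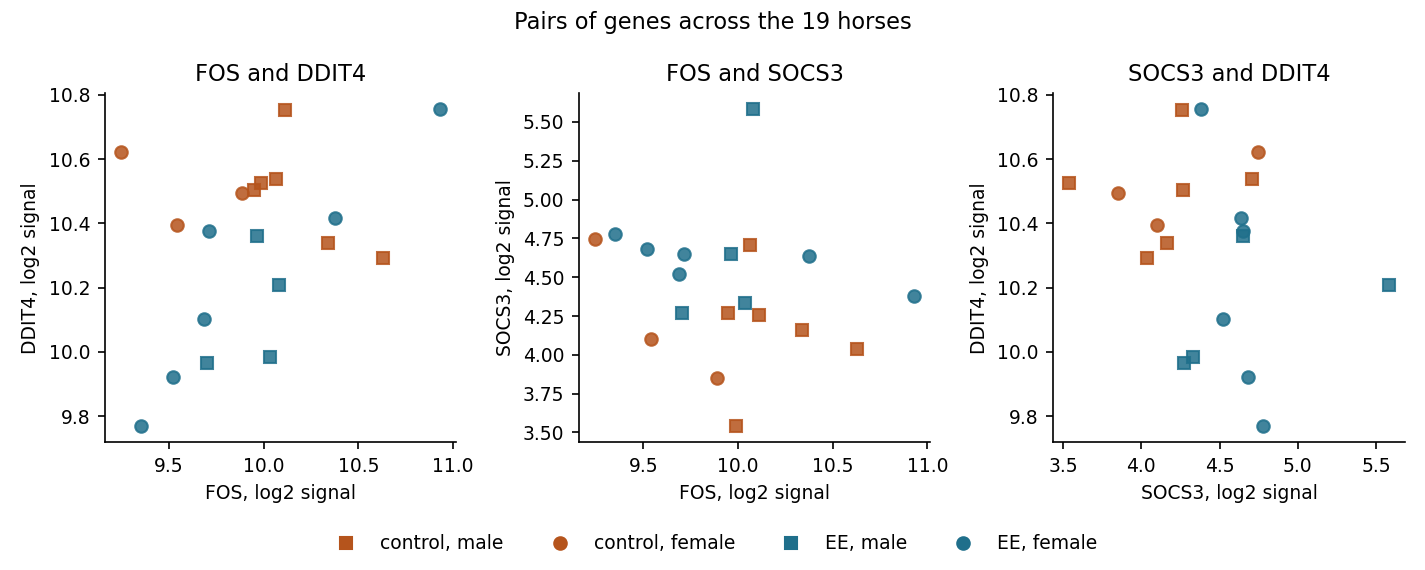
Log2 signal of each pair of genes in the 19 horses (1 point per horse, control in brown, EE in blue, squares males, circles females; both axes log2 signal). In the panel of FOS and DDIT4 the EE-treated horses lie along a rising line from horse646 (9.35 and 9.77) to horse643 (10.93 and 10.75), while the control horses do not.

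Brightness of the array did not track any of the genes past the threshold. Of 6 relations of the 3 genes with the 75th percentile before scaling or with the share of spots well above background, 0 had an adjusted permutation p under 0.05. The largest r were 0.401 of DDIT4 with the share of spots well above background (permutation p = 0.0896, adjusted 0.324, rho 0.306 with adjusted p = 0.339) and -0.36 of SOCS3 with the 75th percentile (permutation p = 0.124, adjusted 0.324, rho -0.37 with adjusted p = 0.339). Without the 2 arrays farthest in the array measure they were 0.522 (unadjusted permutation p = 0.0323) and -0.42 (unadjusted permutation p = 0.0958). Likewise, r of FOS with the share of spots well above background went from 0.288 to 0.477 (unadjusted permutation p = 0.0523). Before any scaling, FOS and DDIT4 correlated at 0.73 over the 19 horses (permutation p = 0.00046, adjusted 0.00138). Unscaled values still hold the brightness of each array, which all its probes share. In that setting r was also higher for the other pairs, at 0.18 for FOS and SOCS3 and 0.12 for SOCS3 and DDIT4. The part of brightness in the 0.73 was not tested.

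Markers of blood cells correlated with some of these values. Only neutrophil markers with SOCS3 reached an adjusted p under 0.05, and by rho alone (permutation test). Neutrophil markers could be named for 2 of 12 genes, LTF and MMP9, both detected, and their summed log2 signal was 11.88 to 13.81 in control horses and 12.98 to 14.07 in EE-treated horses. It tracked SOCS3 (r = 0.611, permutation p = 0.00502, adjusted over 21 relations of 7 marker lists with 3 genes 0.054, and rho = 0.733, adjusted permutation p = 0.0107). Without the 2 horses farthest in that sum r was 0.646, and with group means subtracted 0.474. Most of that sum was MMP9, which alone had r = 0.651 with SOCS3 (permutation p = 0.00255, adjusted over 39 relations of single markers 0.0815, rho = 0.789, adjusted 0.00312), while LTF had r = -0.08 (permutation p = 0.743). MMP9, the gelatinase of neutrophil granules, was 0.59 higher in EE-treated horses (unadjusted p = 0.02, adjusted p = 0.342 in limma), and LTF had a difference of -0.27 (unadjusted p = 0.602).

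The monocyte markers CD14 and CD68, named for 2 of 7 genes, lay at 12.55 to 14.14 in control and 13.14 to 14.53 in EE-treated horses, summed. Their sum had r = 0.588 with SOCS3 (permutation p = 0.00943, adjusted 0.054, rho = 0.532, adjusted 0.0885), not past an adjusted p of 0.05. Without the 2 horses farthest in it, r was 0.502. The sum was nearly all CD14 (r = 0.591, permutation p = 0.00922, adjusted 0.0856), and CD68 alone had r = 0.319 (permutation p = 0.18). The part of neutrophils and monocytes in the SOCS3 difference was not tested.

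The only B cell marker that could be named of 7, FCER2, the low-affinity IgE receptor, lay at 6.92 to 8.27 in control and 7.87 to 9.44 in EE-treated horses, averaged over 5 of its 6 probes, since the other was not well above background on every array. It ran against DDIT4 (r = -0.57, permutation p = 0.011, adjusted over the 39 relations 0.0856, rho = -0.56, adjusted 0.145), and with group means subtracted r was -0.26. Without the 2 horses farthest in FCER2, r was -0.47. These 5 probes of 1 gene met the rule of the study's methods, higher in EE-treated horses, where 1.18% of all probes did. Its part in the DDIT4 difference was not tested.

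Red cell markers detected were HBA2 and HBB (of the 12 genes of that list 4 could be named and 2 were detected). FOS had r = 0.589 with their sum (permutation p = 0.00787, adjusted 0.054, rho = 0.56, adjusted 0.0885), not past an adjusted p of 0.05. Without horse643 and horse651 r was 0.336 (permutation p = 0.187). DDIT4 had r = 0.443 with the same sum (permutation p = 0.0559, adjusted 0.196, rho = 0.402), and 0.586 with group means subtracted (permutation p = 0.0201). The platelet markers ITGA2B and SELP, the 2 detected of 3 named and 8 listed, went opposite ways with FOS, at r = -0.35 (permutation p = 0.139) and r = 0.553 (permutation p = 0.0141, adjusted over the 39 relations 0.0916). Their sum, mostly SELP, had r = 0.525 (permutation p = 0.0208, adjusted 0.0872, rho = 0.526, adjusted 0.0885) and without the 2 farthest horses 0.642. The summed red cell signal was 11.59 to 15.33 in control and 11.56 to 16.79 in EE-treated horses, and that of platelets 11.62 to 12.92 and 11.71 to 13.45. The part of these cells in the values of FOS and DDIT4 was not tested. Summed T cell and natural killer markers had r from -0.35 to 0.281 with the 3 genes. The T cell marker IL7R alone ran against FOS (r = -0.60, permutation p = 0.00627, adjusted over the 39 relations 0.0815, rho = -0.48, adjusted 0.199). Without the 2 horses farthest in IL7R, r was -0.21. CD2, the other detected T cell marker, had r = -0.22 with FOS (permutation p = 0.36).

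Genes with the most similar pattern over the 19 horses were sought for each gene among 440 named genes detected on all arrays, by Pearson r. The genes listed are the extremes of 440 values of r, which were not tested, so the list is a ranking only. For FOS the 5 highest were PTMA (0.722, prothymosin alpha), ARRDC3 (0.682, an arrestin-domain protein), HNRNPK (0.648, an RNA-binding protein), DOCK8 (0.636, a signaling protein of white blood cells) and HBA2 (0.613, an alpha globin). The 3 lowest were PRKDC (-0.74, the catalytic subunit of DNA-dependent protein kinase), PRKAB2 (-0.73, a subunit of the energy sensor AMPK) and DPRX (-0.66, a homeobox gene). Between the groups, limma gave none of these 8 an unadjusted p under 0.05.

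For SOCS3 the 5 highest included IL4R (0.736, the interleukin 4 receptor), ALOX5AP (0.703, a protein of leukotriene synthesis) and FTL (0.696, ferritin light chain). The 3 lowest were MAGT1 (-0.78, a magnesium transporter), CALU (-0.72, a calcium-binding protein) and BUB3 (-0.64, a mitotic checkpoint protein). Between the groups, FTL (0.35, unadjusted p = 0.00728) and CALU (-0.34, unadjusted p = 0.0168) differed in limma. With group means subtracted, r was 0.692 for IL4R, 0.624 for ALOX5AP, 0.548 for FTL, -0.77 for MAGT1, -0.60 for CALU and -0.54 for BUB3.

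For DDIT4 the 5 highest were PCLAF (0.658, a partner of the replication clamp PCNA), HSP90B1 (0.612, a chaperone of the endoplasmic reticulum), LUC7L2 (0.601, a splicing factor), CHTOP (0.595, an RNA export factor) and SELENOI (0.578, an enzyme of phospholipid synthesis). The 3 lowest were TMEM234 (-0.60), FCER2 (-0.54) and GPX1 (-0.52, glutathione peroxidase). PCLAF was 0.61 lower in EE-treated horses on the log2 scale (difference -0.61, unadjusted p = 0.0109, adjusted p = 0.308 in limma). SELENOI (-0.39), TMEM234 (0.31), FCER2 (0.94) and GPX1 (0.32) also had an unadjusted p under 0.05 between the groups in limma. With group means subtracted, r was 0.503 for PCLAF, 0.524 for HSP90B1, 0.356 for SELENOI, -0.41 for TMEM234, -0.25 for FCER2 and -0.33 for GPX1. It was 0.684 for LUC7L2 and 0.612 for CHTOP. The median r over the 440 genes was 0.061 for FOS, 0.099 for SOCS3 and -0.06 for DDIT4.

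Few genes of the surrounding pathways could be named. Of 9 AP-1 genes only FOS could be named, and of 17 further immediate early genes 0 could. In the SOCS and JAK-STAT list 6 of 29 genes could be named (among them IL6, IL10, JAK2, PIM1 and SOCS3, 10 probes in all), and SOCS3 was the only member of the SOCS family among them. One probe of the 10, that of SOCS3, had an unadjusted p under 0.05, near the 11.7% of all probes. Of the other 9 probes, 2 were well above background on every array. PIM1, a kinase induced by STAT signaling, lay at 12.80 in EE-treated and 12.52 in control horses, not past that level.

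In the list of DDIT4, mTOR and cell stress genes, 5 of 22 could be named (among them ADM, RPS6KB1, VEGFA and DDIT4, 21 probes in all). The 5 probes with an unadjusted p under 0.05 were those of DDIT4, so that 0 of the other 16 had one, where 11.7% of all probes did. Of these 16, 2 were well above background on every array, and the probes of VEGFA and ADM on few arrays or none. The count of 0 therefore says little about the list. RPS6KB1, the S6 kinase that mTORC1 activates, lay at 9.17 ± 0.21 (SD, n = 10) in EE-treated and 9.38 ± 0.57 (SD, n = 9) in control horses. The glucocorticoid response list had 3 of 13 genes named (ANXA1, IL1R2 and the receptor gene NR3C1, 7 probes), and 0 of these probes reached an unadjusted p under 0.05 (limma), against the same 11.7%.

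In the heat shock list 4 of 12 genes could be named (HSPA8, HSP90AA1, HSP90AB1 and HSP90B1, 9 probes). None of the 9 probes was higher in EE-treated horses, 0 had an unadjusted p under 0.05 (limma, 11.7% of all probes), and the median log2 difference was -0.08, where that of all probes was 0.06. Most of the 9 probes belong to HSP90AB1 alone and are not separate evidence, and the differences were small, from -0.20 to -0.04. Without the probes of SOCS3 and DDIT4 themselves, the medians of the other lists were -0.06 for SOCS and JAK-STAT (9 probes, 2 of them well above background on every array), -0.05 for DDIT4, mTOR and cell stress (16 probes, likewise 2), and 0.01 for glucocorticoid response (7 probes, all 7).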

How the data were processed

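Blood RNA of 19 horses, grouped by their labels into 9 control and 10 EE-treated horses, was labelled with Cy3 and hybridised to 1 custom Agilent array per horse. The authors scanned the arrays and deposited the intensity of each spot as processed by Feature Extraction (version 9.1 per the labels, 10.7.3.1 per the file headers), with its local background and flags (outlier, saturated, well above background). Also deposited were the authors' log2 values of the same arrays, which for the 7 probes equalled those computed here within 0.000637. A processed intensity already has the background removed, which makes dim probes sensitive to that step.

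Control spots were left out, each array was scaled to a 75th percentile of 500 over all its other spots, as in the methods, and log2 was taken. Spots marked as outliers were then left out, and the log2 values of the spots of a probe were averaged. Probes were named through the RefSeq accession of the array design and a RefSeq gene table of another assembly, used for names alone (1781 of 3275 probes with such an accession matched). All 43384 probes were fitted together in limma 3.58.1 (R 4.3.3), with Benjamini-Hochberg adjustment over all of them. The methods' own threshold is an unadjusted p under 0.005 with a ratio of 1.2 and over, or of 0.8 and under. Correlations used two-sided permutation tests with 100000 resamples, exact below 10 horses (Python 3.11.15, scipy 1.17.1). The fit and the correlations were tested on simulated data. Cell type markers were summed over the unlogged signals of the named and detected genes. Slides were compared as blocks and within, and the 2 scans likewise. The numbers of outlier spots per array were 2 to 56. Depth of an array is given by its brightness and its share of spots above background, and the number of horses sets the precision.

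Named were all probes of the 3 genes, for each gene the 5 named genes with the highest and the 3 with the lowest r, members of the pathway lists with an unadjusted p under 0.05, and AP-1 and SOCS family members. A few genes that these rules name are not reported here. Other pathway genes, the markers (each on its own as well as summed) and the 2 probes of ENSECAT00000004086 were singled out after their values were seen. The members, lists and tests were chosen with earlier results of these data known. Alternatives in normalization, background correction, filter, outlier spots, slide, scan, sex, test and horses were tried.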

Additional observations from a re-analysis of the deposited data

Results flagged for a closer look

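Of 14 groups of probe values, 1 held a horse far from the others of its group, where chance alone marks about 5% of groups. EE-treated horse469 had a SOCS3 log2 signal of 5.58, and the other 9 EE-treated horses lay between 4.27 and 4.78. The gap was 0.613 of the range of the group, above the critical value of 0.466 for 10 horses. Without this horse the SOCS3 difference was 0.36 on the log2 scale.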

How the results depend on the processing

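The direction of SOCS3 and of the 5 DDIT4 probes was the same under all alternatives tried. DDIT4 probe A_69_P107076 came under the threshold of the methods with quantile normalization (-0.34), centring on the median (-0.35), normexp (-0.34) and a filter on dim probes (-0.35), and A_69_P107077 with normexp (-0.33). Of all probes, 0.825%, 0.691%, 0.24% and 1.02% met it downward in these fits, in that order, and 0.643% in the main fit. FOS turned with sex as a covariate (0.041), brightness as a covariate (0.017) and in females alone (0.37). With each horse left out in turn, FOS lay between -0.15 and 0.0455, SOCS3 between 0.36 and 0.53, and the DDIT4 probes between -0.41 and -0.30 (A_69_P107076), -0.40 and -0.28 (A_69_P107077), -0.35 and -0.25 (A_69_P107078), -0.38 and -0.27 (A_69_P107079) and -0.33 and -0.21 (A_69_P107080). SOCS3 met the threshold without control horse650 (0.53), where 1.49% of all probes met it upward. DDIT4 probes A_69_P107076 to A_69_P107079 met it without EE-treated horse643, where 0.811% of all probes met it downward. FOS turned without control horse470 (0.0455) or horse471 (0.01) and without EE-treated horse646 (0.03) or horse642 (0.01). The SOCS3 difference was 0.30 with normexp and 0.27 without scaling, where the unadjusted p was 0.179 in limma.

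Between males and females the small differences of DDIT4 turned without treatment in the fit (0.064, 0.041, 0.019 and 0.0397 for A_69_P107076 to A_69_P107079), and that of SOCS3 without treatment (-0.10) and with slide as a block (-0.077).

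For FOS and DDIT4 r was 0.73 without scaling, 0.85 in EE-treated horses (rho 0.83), -0.43 in control horses (rho -0.32) and 0.279 without horse643. For FOS and SOCS3 it turned without scaling (0.18), and without the 2 horses farthest in FOS among control (0.20) and EE-treated horses (0.25). For SOCS3 and DDIT4 it turned with group means (0.063) or means of treatment and sex (0.078) subtracted, in control horses (0.31, rho 0.52), without scaling (0.12), and without the 2 farthest horses among control (0.13) and EE-treated horses (0.23). The cause was not tested for any of these.

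Over all probes, 789 met the threshold of the methods (510 higher and 279 lower in EE-treated horses), 629 higher and 104 lower with normexp, and 22 higher and 352 lower without scaling. The median difference of all probes was 0.06, and -0.12 without scaling. Leaving out horses gave 501 (without control horse477) to 1039 probes (without control horse471). Adjusted p under 0.05 was reached by 0 probes, by 7 with normexp, 2 with the filter, 3 without control horse650 and 1 without control horse472. Brightness as a covariate, no scaling, the arrays of scan 1, each sex alone, the exact test, rho and r within groups without 2 horses, and r without horse643 were chosen after seeing the data. No paired analysis was possible because each horse belonged to 1 group only.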
